A study of Arabidopsis thaliana with 6 samples.

Results

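The genes described here make the isoprenoids of the Arabidopsis plastid: the carotenoids, tocopherol (vitamin E), plastoquinone and the phytyl chain of chlorophyll, together with the enzymes that supply their building blocks. They were chosen by name as 39 gene identifiers, and all 39 were found among the 36917 genes counted. All libraries came from soil-grown plants of the Col-0 ecotype, 3 weeks old, kept in long days of 16 h in the greenhouse. The fbn6-1 mutant, a Col-0 line carrying the GK_159E10 insertion, gave 3 RNA-seq libraries (replicates 1, 2 and 3), and the Col-0 wild type gave 3 (replicates 2, 3 and 4). The labels name no light or cadmium treatment of these plants, and a single mutant line stands for the loss of the gene.

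FBN6 encodes a fibrillin, a lipid-associated protein of the plastid, and the comparison asks which transcripts differ when it is disrupted. In plastids, the methylerythritol phosphate (MEP) pathway builds the unit isopentenyl diphosphate from pyruvate and glyceraldehyde phosphate. Prenyltransferases join these units to geranylgeranyl diphosphate, the branch point from which carotenoids, the phytyl chain of chlorophyll and tocopherol, and the solanesyl tail of plastoquinone are made. Carotenoids harvest light and quench excess excitation, tocopherol protects membrane lipids, and plastoquinone carries electrons between the photosystems. Part of the tocopherol and plastoquinone pool lies in plastoglobules, lipid droplets on the thylakoid membrane that also hold fibrillins.

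Library totals lay between 8668956 and 12287197 counts, of which 3257770 to 4955128 fell on nuclear genes, and the 39 genes together held 0.784% to 0.826% of the nuclear counts in fbn6-1 and 0.740% to 0.853% in wild type. FBN6 (AT5G19940) had 7, 3 and 3 counts in the fbn6-1 libraries, against 1845, 1557 and 2201 in the wild-type libraries. The counts of wild-type replicate 3 stood apart from those of its group, with 13.9 and 13.0 times the sampling variance against replicates 2 and 4. The other pairs within a genotype lay between 4.53 and 5.51 times, so the calls among the 39 genes are also given without it. The variance was taken over nuclear and organelle genes together. Of the tissue markers, the 5 leaf genes summed to 18120 to 19350 CPM (counts scaled to the size of the library) in fbn6-1 and 21590 to 22170 CPM in wild type, and 1 of them, PSAD2 of photosystem I, was called lower (log2 fold change -0.42, adjusted p = 0.0222), against 2.34% of all tested genes. Of the 5, 4 were lower at an unadjusted edgeR p under 0.05, against 9.80% of all tested genes. Also 4 had groups that did not overlap, lower in fbn6-1, against 12.1%. The part of this lower leaf signal in the differences described here was not tested. The 8 root markers summed to at most 5.33 CPM in any library, and 3 of them had no count in any. Most of that sum was SHR, the only 1 of them tested, which was not called (-0.16, edgeR adjusted p = 0.81). PYK10, too low to be tested, had 13, 10 and 6 counts in fbn6-1 and 0, 2 and 1 in wild type. The 6 flower markers summed to at most 1.36 CPM, and AP3, which specifies petals and stamens, had no count. The 6 senescence markers summed to 30.6 to 31.1 CPM in fbn6-1 and 24.0 to 33.1 CPM in wild type, and SAG12 had no count. Of the 3 that were tested, 1 was called lower, against 2.34% of all tested genes: SEN1, a dark-induced gene (-1.33, edgeR adjusted p = 0.0454). Its counts were few, 32, 28 and 6 in fbn6-1 and 51, 34 and 69 in wild type. WRKY53 lay in the other direction without a call (edgeR log2 fold change 0.47, 95% interval 0.07 to 0.87, adjusted p = 0.20). NYE1 was not called either (-0.14, edgeR adjusted p = 0.748). Since nothing in the labels tells single plants from pooled ones, a p-value here measures the spread between these libraries alone. In material of mixed cell types, fewer cells of a type and less RNA per cell cannot be told apart.

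None of the 39 genes was called different between fbn6-1 and wild type at an adjusted p under 0.05 (edgeR quasi-likelihood test, adjusted over 16584 genes), where 3.82% of all tested genes were called, 1.48% higher and 2.34% lower. The smallest adjusted p was 0.0635, for PSY. All 39 passed the filter on low counts. DESeq2 also called 0 of them, where it called 203 of all tested genes higher and 337 lower. With limma-voom 1 was called lower, PSY, where 235 of the 16584 tested genes were called higher and 394 lower. At an unadjusted p under 0.05, 11 genes (28.2%) passed, 1 higher and 10 lower in fbn6-1, against 17.8% of all tested genes, 8.04% higher and 9.80% lower. The split stayed with RLE factors (1 higher, 10 lower), DESeq2 (1 higher, 7 lower) and limma-voom (1 higher, 9 lower). With 1 library left out it was 0 to 1 higher and 4 to 10 lower. It turned with library-size scaling, where 3 of the 39 passed higher and 0 lower. There the median log2 fold change of all tested genes moved to 0.13. With the replicate number as a block 0 passed higher and 3 lower, but that fit compares only the replicate numbers found in both genotypes. The 3 fbn6-1 values lay wholly below the 3 wild-type values for 9 genes and wholly above them for 0, which is 23.1% of the genes. Of all tested genes 23.0% had separate groups, 12.1% lower and 10.9% higher in fbn6-1.

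The 39 log2 fold changes lay between -0.58 and 0.52, with a median of -0.067 where all tested genes had -0.0037. For 37 genes the 95% interval of the log2 fold change lay within -1 and 1, so a 2-fold difference in either direction was outside it. SPS1 and PES1 were the exceptions. For 22 genes the interval also lay within -0.5 and 0.5. Below 0 lay 25 genes (64.1%), against 50.5% of all tested genes. With library-size scaling 17 of the 39 lay below 0, the median was 0.064 and that of all tested genes moved to 0.13, so the sign of a small value depends on the scaling.

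**Figure D1:**
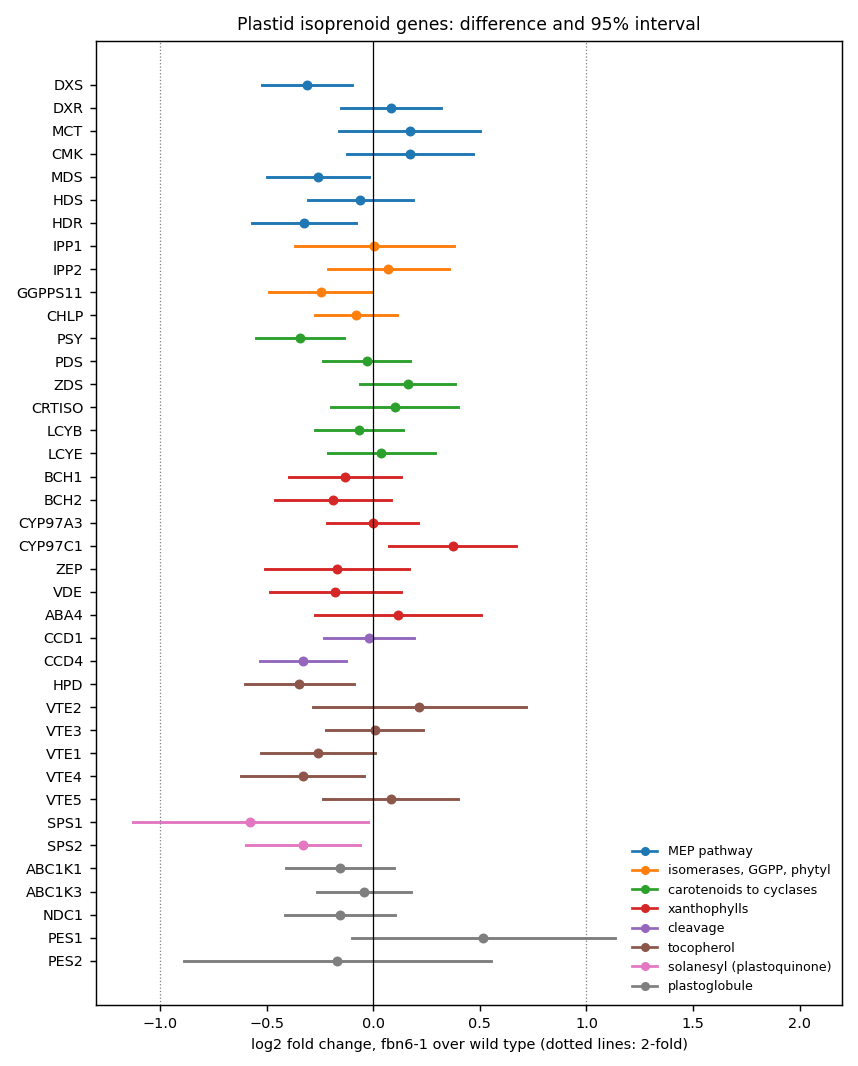
Log2 fold change of each of the 39 genes, fbn6-1 over wild type (points), with its 95% interval (lines) from the edgeR quasi-likelihood fit of 3 libraries per genotype, coloured by branch of the pathway. The intervals of 37 genes lie between the dotted 2-fold lines, and those of SPS1 and PES1 cross them.

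Among the alternatives, the number of genes of the pathway called changed most when wild-type replicate 3 was left out. Without it 6 were called lower and 0 higher, where 7.23% of all tested genes were called, 4.52% lower and 2.70% higher. These were DXS (-0.37, adjusted p = 0.0248), HDR (-0.43, adjusted p = 0.0128), PSY (-0.40, adjusted p = 0.0147), ZEP (-0.37, adjusted p = 0.0386), SPS1 (-0.82, adjusted p = 0.0164) and SPS2 (-0.41, adjusted p = 0.0403). With any other library left out, 0 of the 39 were called.

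The MEP pathway has 7 enzymes, each with 1 main gene in the set. DXS (AT4G15560) encodes deoxyxylulose phosphate synthase, the entry step and a main point of control of the pathway. It stood at 264, 236 and 256 CPM in fbn6-1 replicates 1, 2 and 3, against 331, 287 and 320 CPM in wild-type replicates 2, 3 and 4 (CPM are scaled by TMM factors, and values below keep this order of replicates). All fbn6-1 values lay below all wild-type values, and the log2 fold change was -0.31 (SE 0.10, 95% interval -0.52 to -0.10, adjusted p = 0.102). HDR (AT4G34350), the reductase of the last step, which releases isopentenyl and dimethylallyl diphosphate, stood at 195, 179 and 182 CPM in fbn6-1 and 230, 197 and 267 CPM in wild type. Its groups did not overlap either, although the lowest wild-type library, replicate 3, lay only just above the highest fbn6-1 library (log2 fold change -0.32, SE 0.11, adjusted p = 0.141).

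MDS (AT1G63970), the cyclodiphosphate synthase of the fifth step, also had separate groups, at 25.5, 24.5 and 22.6 CPM in fbn6-1 and 29.0, 31.1 and 27.2 CPM in wild type (log2 fold change -0.26, SE 0.11, adjusted p = 0.234). The 3 genes between DXS and MDS lay above 0. DXR (AT5G62790), the reductoisomerase that makes methylerythritol phosphate, had a log2 fold change of 0.08 (95% interval -0.15 to 0.32). MCT (AT2G02500), which adds a cytidine nucleotide to that product, stood at 14.9, 10.6 and 12.8 CPM in fbn6-1 and 12.5, 10.8 and 11.1 CPM in wild type (0.17, 95% interval -0.16 to 0.50), and its value was 0.034 without fbn6-1 replicate 1 and 0.29 without fbn6-1 replicate 2. CMK (AT2G26930), the kinase after it, had 0.17 (95% interval -0.12 to 0.47). HDS (AT5G60600), the iron-sulfur enzyme before HDR, was even in fbn6-1, at 183, 183 and 187 CPM, and uneven in wild type, at 208, 158 and 210 CPM with replicate 3 lowest (-0.06, 95% interval -0.30 to 0.18). Of the 7 genes 4 thus lay below 0 and 3 above, with a median of -0.060.

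Isopentenyl diphosphate isomerase interconverts the C5 units and is encoded by IPP1 and IPP2. IPP1 (AT5G16440) stood at 9.08, 9.47 and 8.07 CPM in fbn6-1 and 7.65, 11.02 and 8.09 CPM in wild type, with a log2 fold change of 0.01 (95% interval -0.37 to 0.38). IPP2 (AT3G02780) stood at 21.0, 27.3 and 19.99 CPM in fbn6-1 and 21.4, 22.5 and 21.1 CPM in wild type (0.07, 95% interval -0.21 to 0.35). Only fbn6-1 replicate 2 lay apart from the rest. AT3G02790 lies within the exons of IPP2 on the opposite strand, and had 78, 56 and 49 counts in fbn6-1 and 32, 40 and 32 in wild type, where IPP2 had 280, 256 and 176 in fbn6-1 and 204, 188 and 240 in wild type. With those counts subtracted the value of IPP2 became -0.09, an alternative chosen after seeing the data. The subtraction assumes that these reads were also counted for IPP2 and did not come from its own transcript. The counts do not show whether that holds.

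GGPPS11 (AT4G36810), the main geranylgeranyl diphosphate synthase of the plastid, stood at 25.9, 22.9 and 28.1 CPM in fbn6-1 and 29.4, 31.0 and 30.7 CPM in wild type (log2 fold change -0.25, SE 0.11, adjusted p = 0.269). Its groups did not overlap. All 1492 exon bases of GGPPS11 are also covered by AT4G36808, an antisense RNA, whose counts nearly matched: 333, 211 and 247 in fbn6-1 and 274, 256 and 342 in wild type, against 345, 215 and 247 in fbn6-1 and 281, 259 and 349 in wild type for GGPPS11. Which strand these reads came from is not shown by the counts. CHLP (AT1G74470), the geranylgeranyl reductase that makes the phytyl chain of chlorophyll and tocopherol, stood at 740, 767 and 753 CPM in fbn6-1 and 814, 779 and 799 CPM in wild type. Its groups were separate by a narrow gap, and the log2 fold change of -0.08 had a 95% interval of -0.27 to 0.11.

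In the carotenoid pathway, PSY (AT5G17230) encodes phytoene synthase, the first committed and main controlling step. It stood at 141, 131 and 137 CPM in fbn6-1 and 178, 160 and 180 CPM in wild type, without overlap. The log2 fold change was -0.34 (SE 0.10, 95% interval -0.55 to -0.14, adjusted p = 0.0635). The adjusted p of PSY lay between 0.0147 and 0.459 over the alternatives, and under 0.05 with limma-voom (0.0454), with organelle genes removed (0.0481) and without wild-type replicate 3.

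The enzymes that convert phytoene to the first cyclic carotenoids lay close to 0. PDS (AT4G14210), the phytoene desaturase, stood at 66.4, 64.3 and 70.3 CPM in fbn6-1 and 68.6, 70.3 and 66.5 CPM in wild type, with a log2 fold change of -0.03 (95% interval -0.24 to 0.17). ZDS (AT3G04870), the zeta-carotene desaturase, had 0.16 (95% interval -0.06 to 0.38), and CRTISO (AT1G06820), the isomerase that yields all-trans lycopene, had 0.10 (95% interval -0.20 to 0.40). These genes act one after the other downstream of PSY, and their intervals include 0.

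Lycopene is the fork of the pathway: LCYB (AT3G10230) forms beta rings, and LCYE (AT5G57030) forms the epsilon ring of lutein. LCYB stood at 61.0, 61.1 and 56.2 CPM in fbn6-1 and 61.0, 61.6 and 64.3 CPM in wild type. LCYE stood at 53.1, 41.4 and 52.6 CPM in fbn6-1 and 49.1, 44.7 and 49.4 CPM in wild type. Their log2 fold changes were -0.07 (95% interval -0.27 to 0.14) and 0.04 (95% interval -0.21 to 0.29). The ratio of LCYB to LCYE counts was 1.15, 1.48 and 1.07 in fbn6-1 and 1.24, 1.38 and 1.301 in wild type, so the wild-type values lay inside the fbn6-1 range.

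The ring hydroxylases make zeaxanthin and lutein. BCH1 (AT4G25700), a non-haem beta-ring hydroxylase, stood at 39.1, 38.1 and 31.8 CPM in fbn6-1 and 44.0, 41.3 and 34.6 CPM in wild type (-0.13, 95% interval -0.40 to 0.13). Its paralog BCH2 (AT5G52570) stood at 21.8, 19.5 and 18.2 CPM in fbn6-1 and 20.02, 22.6 and 25.2 CPM in wild type (-0.19, 95% interval -0.46 to 0.08). Among the wild-type libraries BCH1 was highest and BCH2 lowest in replicate 2, and BCH1 lowest and BCH2 highest in replicate 4. The cytochrome P450 CYP97A3 (AT1G31800), a beta-ring hydroxylase of the lutein branch, was level, at 50.3 ± 2.92 CPM in fbn6-1 and 50.5 ± 1.75 CPM in wild type (SD, n = 3 each). Its partner CYP97C1 (AT3G53130), the epsilon-ring hydroxylase, had an unadjusted p under 0.05 in the upward direction, the only 1 of the 39 with TMM scaling. CYP97C1 stood at 25.2, 26.9 and 20.6 CPM in fbn6-1 and 21.7, 16.5 and 18.02 CPM in wild type. The groups overlapped, and the log2 fold change was 0.37 (SE 0.14, 95% interval 0.07 to 0.67, adjusted p = 0.168). Without wild-type replicate 3 it was 0.295 (edgeR adjusted p = 0.236).

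The xanthophyll cycle interconverts zeaxanthin and violaxanthin with the light. ZEP (AT5G67030), the epoxidase that makes violaxanthin and feeds abscisic acid synthesis, stood at 212, 180 and 210 CPM in fbn6-1 and 243, 159 and 274 CPM in wild type. The wild-type libraries spread on both sides of the fbn6-1 libraries, with replicate 3 lowest of all 6, and the log2 fold change was -0.17 (SE 0.16, 95% interval -0.51 to 0.17, adjusted p = 0.643). VDE (AT1G08550), the violaxanthin de-epoxidase that acts in excess light, stood at 22.1, 17.8 and 20.4 CPM in fbn6-1 and 25.0, 18.1 and 25.0 CPM in wild type (-0.18, 95% interval -0.48 to 0.13). Without wild-type replicate 3 its value was -0.31 (edgeR adjusted p = 0.160). The ratio of VDE to ZEP was 0.104, 0.0990 and 0.0972 in fbn6-1 and 0.103, 0.114 and 0.0912 in wild type, with the fbn6-1 values inside the wild-type range. ABA4 (AT1G67080), required for neoxanthin, had a log2 fold change of 0.12 (95% interval -0.27 to 0.51), from 9.46, 10.2 and 7.95 CPM in fbn6-1 and 8.91, 10.2 and 6.68 CPM in wild type.

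Of the cleavage enzymes, CCD4 (AT4G19170), a plastoglobule dioxygenase that breaks down carotenoids, stood at 132, 131 and 124 CPM in fbn6-1 and 152, 163 and 171 CPM in wild type. The groups did not overlap, and the log2 fold change was -0.33 (SE 0.09, 95% interval -0.53 to -0.13, adjusted p = 0.0712). The adjusted p of CCD4 lay between 0.05002 and 0.507 over the alternatives, with limma-voom giving the lowest. CCD1 (AT3G63520), the cytosolic cleavage dioxygenase, stood at 124, 133 and 118 CPM in fbn6-1 and 132, 117 and 130 CPM in wild type (-0.02, 95% interval -0.23 to 0.19).

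Tocopherol and plastoquinone share the ring precursor homogentisate, made by HPD (AT1G06570). HPD stood at 23.8, 19.7 and 20.2 CPM in fbn6-1 and 25.4, 26.95 and 29.0 CPM in wild type. The groups did not overlap, with a log2 fold change of -0.35 (SE 0.12, 95% interval -0.60 to -0.09, adjusted p = 0.131). VTE2 (AT2G18950), which attaches the phytyl chain to homogentisate, was among the least abundant, at 3.53, 4.90 and 6.13 CPM in fbn6-1 and 3.88, 4.19 and 4.22 CPM in wild type. Its log2 fold change was 0.22 (95% interval -0.28 to 0.71), and the fbn6-1 libraries spread on both sides of wild type. The value was 0.42 without fbn6-1 replicate 1 and 0.025 without fbn6-1 replicate 3.

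VTE3 (AT3G63410), the methyltransferase that serves both tocopherol and plastoquinone, stood at 180, 200 and 166 CPM in fbn6-1 and 201, 173 and 170 CPM in wild type (0.01, 95% interval -0.22 to 0.24). VTE1 (AT4G32770), the tocopherol cyclase of the plastoglobule, stood at 24.6, 24.0 and 19.0 CPM in fbn6-1 and 28.6, 25.4 and 27.2 CPM in wild type, without overlap (-0.26, SE 0.12, 95% interval -0.53 to 0.01, adjusted p = 0.295). VTE4 (AT1G64970), which methylates gamma- to alpha-tocopherol, stood at 18.8, 19.3 and 16.7 CPM in fbn6-1 and 19.2, 26.0 and 24.0 CPM in wild type (-0.33, SE 0.13, 95% interval -0.62 to -0.04, adjusted p = 0.206). Here wild-type replicate 2 lay within the fbn6-1 range. VTE5 (AT5G04490), the kinase that returns phytol from chlorophyll to tocopherol synthesis, had 0.08 (95% interval -0.23 to 0.40).

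SPS1 (AT1G78510) and SPS2 (AT1G17050) encode the solanesyl diphosphate synthases, which make the plastoquinone side chain. SPS1 stood at 9.83, 7.13 and 11.2 CPM in fbn6-1 and 12.5, 8.51 and 20.5 CPM in wild type. Replicate 4 was far above the other wild-type libraries, and the groups overlapped. The log2 fold change of -0.58 was the lowest of the 39 and among the least precise (SE 0.26, 95% interval -1.13 to -0.02, adjusted p = 0.260), and it became -0.16 without wild-type replicate 4 and -0.82 without replicate 3. Without a filter on low counts SPS1 was called lower (edgeR adjusted p = 0.0160) at the same log2 fold change of -0.58. In that setting 727 of 28860 genes were called lower. SPS2 stood at 33.7, 27.9 and 26.8 CPM in fbn6-1 and 38.5, 32.6 and 40.3 CPM in wild type (-0.33, SE 0.12, 95% interval -0.60 to -0.06, adjusted p = 0.171). The overlap came from fbn6-1 replicate 1, which lay above wild-type replicate 3.

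The remaining genes act in plastoglobules. The kinase gene ABC1K1 (AT4G31390) stood at 30.1, 27.6 and 25.3 CPM in fbn6-1 and 32.9, 27.3 and 32.3 CPM in wild type (-0.16, 95% interval -0.41 to 0.10). ABC1K3 (AT1G79600), a second kinase, stood at 89.6, 98.8 and 104 CPM in fbn6-1 and 108, 93.2 and 99.7 CPM in wild type (-0.04, 95% interval -0.26 to 0.18). NDC1 (AT5G08740), a quinone-reducing dehydrogenase, stood at 21.1, 23.1 and 20.7 CPM in fbn6-1 and 23.5, 27.1 and 21.9 CPM in wild type (-0.16, 95% interval -0.41 to 0.10). All 3 had overlapping groups. PES1 (AT1G54570) and PES2 (AT3G26840), which esterify phytol and fatty acids released in senescence and stress, were the rarest transcripts of the set.

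PES1 stood at 2.85, 3.09 and 5.34 CPM in fbn6-1 and 2.72, 2.87 and 2.198 CPM in wild type. Its log2 fold change of 0.52, the highest of the 39, had an SE of 0.29 (95% interval -0.10 to 1.13, adjusted p = 0.379), and it was 0.20 without fbn6-1 replicate 3. PES2 stood at 2.55, 3.51 and 2.27 CPM in fbn6-1 and 1.78, 4.91 and 2.81 CPM in wild type (-0.17, 95% interval -0.89 to 0.55), an interval wider than the range of the 39 log2 fold changes. Its counts were 34, 33 and 20 in fbn6-1 and 17, 41 and 32 in wild type.

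**Figure D2:**
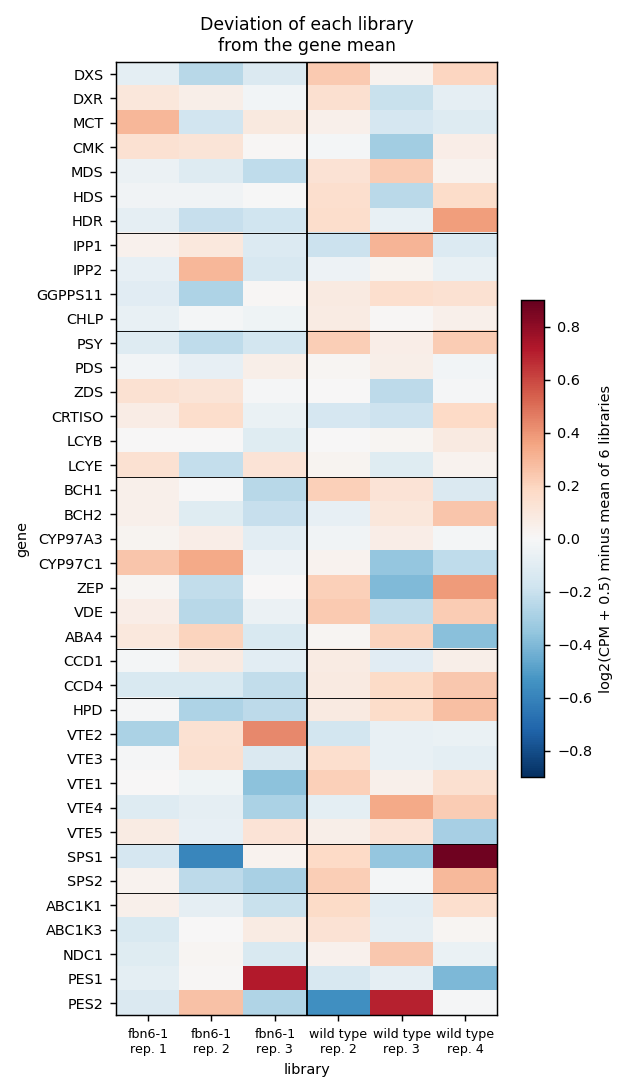
Deviation of log2(CPM + 0.5) in each library from the mean of the 6 libraries, for the 39 genes (rows, grouped by branch), with the fbn6-1 libraries left of the black line. For DXS, PSY and CCD4, among others, the fbn6-1 side is blue and the wild-type side red, though wild-type replicate 3 is pale for DXS (0.034) and PSY (0.062). SPS1, PES1 and PES2 each owe their strongest colours to single libraries.

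The libraries themselves differed in this set. fbn6-1 replicate 3 was the lowest of the fbn6-1 libraries for 22 of the 39 genes (56.4%), against 35.8% of all tested genes, and wild-type replicate 3 the lowest of the wild-type libraries for 20 (51.3%), against 38.2%. The median coefficient of variation of the 39 genes within a genotype was 8.196% in fbn6-1 and 9.98% in wild type, against 12.8% in fbn6-1 and 15.4% in wild type over all tested genes, but the 39 were also more abundant, with a median of 28 CPM against 6.71 CPM over all tested genes, and the part of abundance in this was not tested. Above 25% were VTE2 (26.9%) and PES1 (36.5%) in fbn6-1, and ZEP (26.3%), SPS1 (44.2%) and PES2 (50.3%) in wild type.

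Levels can be compared between genes only per length, here as CPM per kilobase of annotated exon. On that scale CHLP led by far, at 361 ± 6.5 in fbn6-1 and 382 ± 8.4 in wild type (SD, n = 3 each), and alone made up 24.2% to 25.5% of the summed level of the 39 genes in fbn6-1 and 23.5% to 25.3% in wild type. The 5 highest genes held the same order in both genotypes. After CHLP came VTE3 at 134 ± 13 in fbn6-1 and 133 ± 12 in wild type, HDR at 104 ± 4.8 in fbn6-1 and 130 ± 20 in wild type, and DXS at 85.3 ± 4.9 in fbn6-1 and 106 ± 7.6 in wild type. ZEP followed at 77.0 ± 7.0 in fbn6-1 and 86.5 ± 23 in wild type. In wild type each of the genes from VTE3 to ZEP lay within the summed SD of its neighbour in this order, and in fbn6-1 only DXS and ZEP did. The lowest were VTE2, at 2.39 ± 0.64 in fbn6-1 and 2.01 ± 0.094 in wild type, PES1, at 1.36 ± 0.50 in fbn6-1 and 0.943 ± 0.13 in wild type, and PES2, at 1.21 ± 0.28 in fbn6-1 and 1.37 ± 0.69 in wild type.

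Within the branches, the level per length was uneven from step to step. In the MEP pathway it was lowest for MCT, at 7.51 ± 1.3 in fbn6-1 and 6.71 ± 0.53 in wild type, well below DXS and HDR at its ends. In the carotenoid pathway PSY was highest, at 54.3 ± 2.2 in fbn6-1 and 68.8 ± 4.4 in wild type, and CRTISO lowest, at 5.94 ± 0.47 in fbn6-1 and 5.52 ± 0.83 in wild type. Of the xanthophyll genes CYP97C1 was lowest in wild type, at 7.22 ± 0.98 in fbn6-1 and 5.59 ± 0.79 in wild type, but its annotated length of 3355 bases holds all 1316 exon bases of the neighbour AT3G53140, which had 0 counts in every library, so its level per length is understated if that stretch was not transcribed. The plastoglobule branch reached from PES1 and PES2 to ABC1K3, at 38.3 ± 2.8 in fbn6-1 and 39.5 ± 2.9 in wild type.

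**Figure D3:**
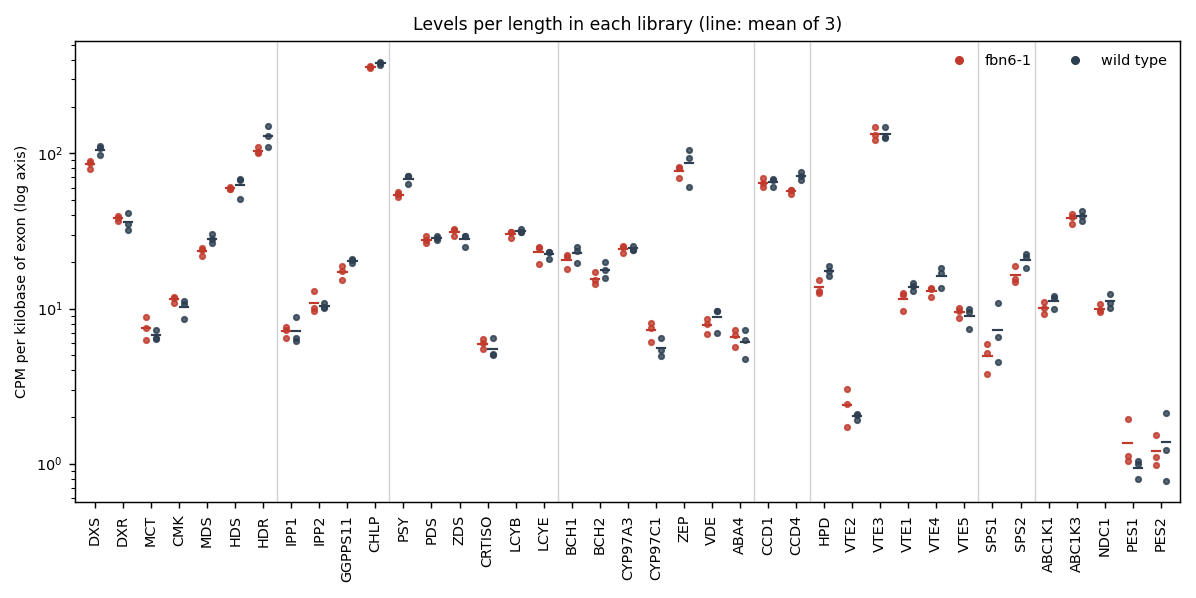
Level of each of the 39 genes per length (CPM per kilobase of annotated exon, log axis) in every library, fbn6-1 in red left of wild type in dark blue, with a line at each mean of 3 libraries and grey lines between the branches. CHLP stands highest, at 361 in fbn6-1 and 382 in wild type, and PES1 and PES2 lowest, near 1.

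The shares of the branches in the summed level per length overlapped between the genotypes in all 8 branches. The MEP genes held 22.0% to 23.4% in fbn6-1 and 22.8% to 24.9% in wild type, and the isomerases with GGPPS11 and CHLP held 26.5% to 27.9% in fbn6-1 and 25.8% to 27.99% in wild type. The genes from PSY to the cyclases held 11.6% to 12.1% in fbn6-1 and 11.6% to 11.9% in wild type. The xanthophyll genes held 10.6% to 11.5% in fbn6-1 and 9.95% to 11.6% in wild type. The tocopherol genes held 12.0% to 13.6% in fbn6-1 and 11.3% to 12.7% in wild type. The smallest branch, SPS1 with SPS2, held 1.33% to 1.63% in fbn6-1 and 1.53% to 2.04% in wild type. These shares describe transcripts and weigh each gene by its level.

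By branch, the median log2 fold change was lowest for the solanesyl synthases (-0.45, 2 genes) and the cleavage enzymes (-0.17, 2 genes), followed by the plastoglobule proteins (-0.16, 5 genes), the xanthophyll enzymes (-0.13, 7 genes) and the tocopherol enzymes (-0.13, 6 genes). It was near 0 for the MEP enzymes (-0.060, 7 genes), the isomerases with GGPPS11 and CHLP (-0.038, 4 genes) and the genes from PSY to the cyclases (0.0040, 6 genes). Branches of so few genes were not compared by a test.

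The balance between genes that share a step or a fork was compared as a ratio within each library, after 0.5 CPM was added to both genes. Over the 7 pairs the two-sided exact permutation p lay between 0.4 and 0.9, adjusted to 0.9 over the 7 pairs, where the smallest p that 3 against 3 libraries allow is 0.1. The largest difference was that of PES1 to PES2, with a log2 ratio of 0.35 ± 0.65 in fbn6-1 and -0.16 ± 0.60 in wild type (SD, n = 3 each), a difference of 0.51 that lay within the spread. It was 0.15 without fbn6-1 replicate 3, 0.25 without wild-type replicate 3, 0.76 without fbn6-1 replicate 2 and 0.84 without wild-type replicate 2. The log2 ratio of SPS1 to SPS2 was -1.61 ± 0.35 in fbn6-1 and -1.48 ± 0.47 in wild type, and that of ABC1K1 to ABC1K3 was -1.80 ± 0.23 in fbn6-1 and -1.69 ± 0.073 in wild type. For LCYB to LCYE it was 0.28 ± 0.24 in fbn6-1 and 0.38 ± 0.075 in wild type. The differences for BCH1 to BCH2 (0.05), IPP1 to IPP2 (-0.05) and VDE to ZEP (-0.03) were smaller than the SD of their wild-type libraries.

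**Figure D4:**
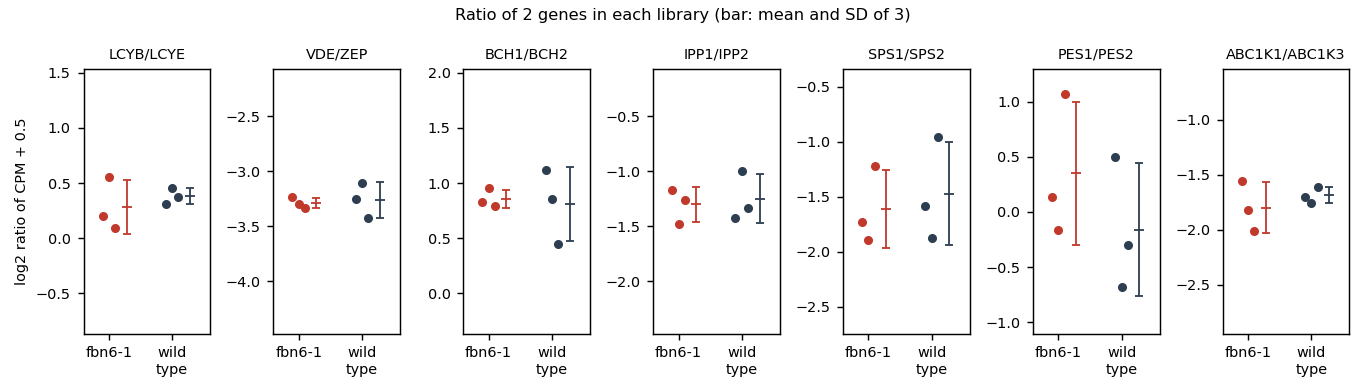
Log2 ratio of 2 genes within each library, for 7 pairs, fbn6-1 in red left of wild type in dark blue, with points for replicates in order and a bar for the mean and SD of 3. Each panel spans the same number of log2 units, and the groups overlap in all 7 pairs.

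Other genes of the plastid pathway gave 0 calls among 14 tested of 15, against 3.82% of all tested genes, and 6 of the 14 had an unadjusted p under 0.05, 2 higher and 4 lower, against 17.8% of all tested genes, 8.04% higher and 9.80% lower. DESeq2 called 0 of them and limma-voom 1 lower, where limma-voom called 394 of the 16584 tested genes lower. The lowest adjusted p was that of OR (AT5G61670), the chaperone that stabilises phytoene synthase. OR stood at 29.7, 31.6 and 33.3 CPM in fbn6-1 and 42.8, 38.0 and 44.7 CPM in wild type, without overlap (log2 fold change -0.41, SE 0.11, 95% interval -0.64 to -0.18, adjusted p = 0.0512). The 95% intervals of OR and PSY, -0.64 to -0.18 and -0.55 to -0.14, both lay below 0. So did those of the other lower genes with an unadjusted p under 0.05, 4 of the 14 here and 10 of the 39, with OR and PSY included. The interval and the unadjusted p come from the same test, so an interval below 0 follows from that p and adds nothing to it. Neither OR nor PSY was called, and a link between them was not tested.

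The outlets to abscisic acid and strigolactone gave 0 calls among 6 tested of 12, against 3.82% of all tested genes. At an unadjusted p under 0.05, 1 gene was higher and 1 lower, against 17.8% of all tested genes. DESeq2 and limma-voom also called 0. NCED3 (AT3G14440), whose dioxygenase makes the first committed precursor of abscisic acid in drought, had the smallest p. It stood at 25.4, 19.5 and 24.0 CPM in fbn6-1 and 13.0, 18.6 and 19.3 CPM in wild type (0.44, SE 0.16, 95% interval 0.11 to 0.78, adjusted p = 0.145). The fbn6-1 values lay above the wild-type values by a narrow margin. Without the filter on low counts NCED3 was called, where 505 of 28860 genes were called higher.

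The cytosol makes the same C5 units by the mevalonate route, for sterols rather than for plastid pigments. Of its 11 genes, all tested, 1 was called higher, against 1.48% of all tested genes, and 0 were called lower. MVK (AT5G27450), which encodes mevalonate kinase, stood at 6.16, 7.03 and 5.23 CPM in fbn6-1 and 4.19, 2.40 and 2.99 CPM in wild type, without overlap. It rose in fbn6-1 by a log2 fold change of 0.94 (SE 0.23, 95% interval 0.44 to 1.43, adjusted p = 0.0392). The call of MVK rested on few counts, 82, 66 and 46 in fbn6-1 and 40, 20 and 34 in wild type. DESeq2 did not make it (adjusted p = 0.0561), and it was lost without any 1 of the fbn6-1 libraries or wild-type replicate 4, where the adjusted p lay between 0.0712 and 0.160 and the log2 fold change between 0.84 and 1.04. With DESeq2 the log2 fold change was 0.94. The other 10 genes of the route, among them HMGR1 (-0.23, adjusted p = 0.210), the reductase that controls it, were not called.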

How the data were processed

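Raw counts per gene, 1 table for each of 6 libraries, were deposited by the authors. Trimmomatic, FastQC, TopHat2 2.1.1, featureCounts and the TAIR10 build are listed, per the submitters' processing notes. How these were set, which annotation release was counted, and how strand and multiply matching reads were handled was not given in the sources used here. The members and lists were chosen with earlier results of these data known.

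Groups and replicate numbers came from the sample titles. fbn6-1 was tested against wild type with edgeR 4.0.16 in R 4.3.3 (quasi-likelihood, two-sided, TMM factors, filterByExpr at a minimum count of 10), with genotype as the only term and Benjamini-Hochberg adjustment over 16584 genes. Intervals are 95% and not adjusted. Levels are CPM on TMM-scaled library sizes. Ratios used a pseudocount of 0.5 CPM. Exon lengths, overlaps and names came from RefSeq TAIR10.1, which matched 36632 of 36917 identifiers; its coordinates are not printed, since the release behind the counts is not stated. Of the 39 genes, 22 overlap another counted gene, 19 of them on the opposite strand, so part of their reads cannot be assigned with certainty.

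All 39 genes are named, with values per library for those of smallest p, for the ratio pairs and for the extremes of each branch; of the related lists the called genes, or else the gene of smallest p, are named. Alternatives were RLE factors, library-size scaling, DESeq2 1.42.0, limma-voom (limma 3.58.1), no filter, 1 CPM in 3 libraries, leaving out each library in turn, a replicate block, removal of organelle genes and a threshold of 0.1.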

Additional observations from a re-analysis of the deposited data

How the results depend on the processing

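No alternative called any of the 39 genes higher in fbn6-1, and RLE factors, library-size scaling, DESeq2, the replicate block and a filter of 1 CPM in 3 libraries called 0 of them lower as well. With limma-voom 1 was called lower (PSY), with organelle genes removed 1 (PSY), without a low-count filter 1 (SPS1), and at an adjusted p under 0.1 there were 2 (PSY and CCD4). Over all tested genes, limma-voom called 394 of 16584 lower, and 413 of 16349 were called lower with organelle genes removed. Without the filter it was 727 of 28860, and at an adjusted p under 0.1 it was 664 of 16584. Leaving out 1 library gave 0 to 6, and 6 came without wild-type replicate 3. Where a count or sign differed, the cause was not tested.

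Over all genes 245 were called higher and 388 lower. Library-size scaling turned this split to 508 higher and 195 lower, moved the median log2 fold change of all tested genes to 0.13 and that of the 39 to 0.064, and brought 8 small negative values above 0: PDS 0.10, LCYB 0.064, BCH1 0.0047, CYP97A3 0.13, CCD1 0.11, ABC1K3 0.087, HDS 0.070 and CHLP 0.049. CYP97A3 was also above 0 with RLE factors (0.0019), DESeq2 (0.0021) and organelle genes removed (0.0053). Without the low-count filter 505 genes were called higher and 727 lower, and at an adjusted p under 0.1 455 higher and 664 lower. Leaving out 1 library gave 84 to 463 higher and 171 to 775 lower, both highest without wild-type replicate 3.

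Of the other plastid genes limma-voom called 1 lower (OR), no filter 2 (TAT1 and OR), an adjusted p under 0.1 gave 2, and leaving out 1 library gave 0 to 2. Over all tested genes the first 3 of these settings called lower 394 of 16584, 727 of 28860 and 664 of 16584. The 2 came without wild-type replicate 3, where 4.52% of all tested genes were called lower. No filter also called 1 abscisic acid gene higher (NCED3), against 505 of 28860 genes. Of the mevalonate genes 0 were called higher with DESeq2 and 0 with the replicate block (MVK, adjusted p = 0.222), and 0 to 1 with 1 library left out.

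The replicate numbers 2 and 3 occur in both genotypes, but the labels do not say that they pair plants, and the deviations of same-numbered libraries correlated at -0.0367 for number 2 and 0.1 for number 3. With the number as a replicate block 73 genes were called higher and 118 lower, and 8 small values changed sign: LCYE -0.0064, ABA4 -0.070, CCD1 0.0077, VTE3 -0.031, VTE5 -0.066, ABC1K3 0.013, HDS 0.028 and IPP1 -0.071. Over the replicate pairs the log2 ratio difference was -0.12 for BCH1 to BCH2 and 0.18 for SPS1 to SPS2.

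With 1 library left out, the log2 fold changes that took both signs were those of LCYE (-0.026 to 0.15), ABC1K3 (-0.095 to 0.013), IPP1 (-0.091 to 0.17), VTE3 (-0.069 to 0.084), IPP2 (-0.076 to 0.15), CYP97A3 (-0.035 to 0.047), CCD1 (-0.071 to 0.027), PES2 (-0.45 to 0.25), ABA4 (-0.045 to 0.25), VTE5 (-0.046 to 0.17) and HDS (-0.18 to 0.0090). The ratio differences that did so were VDE to ZEP (-0.11 to 0.053), BCH1 to BCH2 (-0.13 to 0.21), IPP1 to IPP2 (-0.14 to 0.077) and SPS1 to SPS2 (-0.34 to 0.12). Values that kept their sign also moved by over 1.5 times, such as ZEP (-0.37 to -0.0057) and DXR (0.0087 to 0.18). With the counts of AT3G02790 subtracted, an alternative chosen after seeing the data, IPP2 was at -0.091. Whether those reads were part of the IPP2 counts, and from which strand they came, is not known.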
